A study of Mus musculus with 2 samples.

Results

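The miR-181 family was examined in small RNA libraries from the mouse left cerebral cortex. Its members are the 6 loci Mir181a-1, Mir181a-2, Mir181b-1, Mir181b-2, Mir181c and Mir181d, which lie in 3 genomic pairs. They were found by their Ensembl gene identifiers in GENCODE M21, and the rule used no measured value. They are 6 of the 2202 microRNA loci in the files, and all 6 had at least 10 reads in each library, as did 389 loci in all.

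RNA below 30 nt was sequenced from female B6CASTF1/J mice at 14 days of age. These mice are the first-generation offspring of a cross between the inbred strains C57BL/6J and CAST. There is 1 group of 2 biological replicates, for which the labels give no treatment, and no other genotype or tissue, so every comparison is among loci or between the 2 libraries. One biosample label mentions several females (replicate 1) and the other a single female (replicate 2), and both carry the same donor record. It is not stated if replicate 1 was pooled from animals, so the spread between the libraries may be partly technical.

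MicroRNAs of animals are cut from a hairpin in their primary transcript and guide Argonaute proteins to messenger RNAs, chiefly through the seed, bases 2 to 8 of the mature strand. Each hairpin can give a mature RNA from its 5′ arm (5p) and from its 3′ arm (3p). In mouse thymocytes miR-181a is known for tuning the strength of T cell receptor signalling, and in the brain the family is known from neurons and astrocytes. RNAs with the same seed are predicted to share many targets.

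The mature sequences are shown first because they decide which reads can be told apart. They come from the RefSeq table for GRCm38.p6 (mm10), the C57BL/6J reference, in which all 6 members had mature entries. The CAST alleles of these hybrid mice were not examined. The 5p RNAs are written 5′ to 3′ with the seed in capitals.
miR-181a-5p (Mir181a-1 and Mir181a-2): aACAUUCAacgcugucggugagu
miR-181b-5p (Mir181b-1 and Mir181b-2): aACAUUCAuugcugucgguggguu
miR-181c-5p (Mir181c): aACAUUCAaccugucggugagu
miR-181d-5p (Mir181d): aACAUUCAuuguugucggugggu
All 4 names carry the seed ACAUUCA, and no other mature entry of the table had it. Positions are counted from 1 at the 5′ end. Going from miR-181a-5p to miR-181b-5p the differences were A9U, C10U and A21G, all 3′ of the seed, and miR-181b-5p is listed with 1 more base at its end. Going from miR-181b-5p to miR-181d-5p the substitution was C12U. The RNA miR-181c-5p was miR-181a-5p with 1 base missing, at position 11.

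The 3p RNAs were less alike and are shown with their own seeds in capitals, because they separate loci whose 5p RNA is identical.
miR-181a-1-3p (Mir181a-1): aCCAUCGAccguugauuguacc
miR-181a-2-3p (Mir181a-2): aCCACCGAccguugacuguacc
miR-181c-3p (Mir181c): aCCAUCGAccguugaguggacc
miR-181b-1-3p (Mir181b-1): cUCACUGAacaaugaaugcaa
miR-181b-2-3p (Mir181b-2): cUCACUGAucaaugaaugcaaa
miR-181d-3p (Mir181d): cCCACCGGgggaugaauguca
The 3p seed CCAUCGA was shared by Mir181a-1 and Mir181c, and UCACUGA by both miR-181b loci. From miR-181a-1-3p to miR-181a-2-3p the substitutions were U5C and U16C, the first within the seed. From miR-181b-1-3p to miR-181b-2-3p the substitution was A9U.

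The 6 loci lie at 3 places in the genome. Mir181a-1 (mm10, chr1:137966455-137966541, plus strand) and Mir181b-1 (chr1:137966639-137966718) lie 97 nt apart within an intron of the non-coding transcript gene Gm4258. Mir181b-1 also lies wholly in an exon of the lincRNA A430106G13Rik, which overlaps the last 11 nt of Mir181a-1. Mir181a-2 (chr2:38852735-38852810, plus strand) and Mir181b-2 (chr2:38853830-38853918) lie 1019 nt apart with no annotated host on their own strand. The non-coding gene Nr6a1os ends 364 nt upstream of Mir181a-2, and Nr6a1, an orphan nuclear receptor gene, spans both loci on the opposite strand. Mir181c (chr8:84178873-84178961, minus strand) and Mir181d (chr8:84178716-84178787) lie 85 nt apart in an intron of Nanos3, an RNA-binding protein gene known from germ cells.

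**Figure D1:**
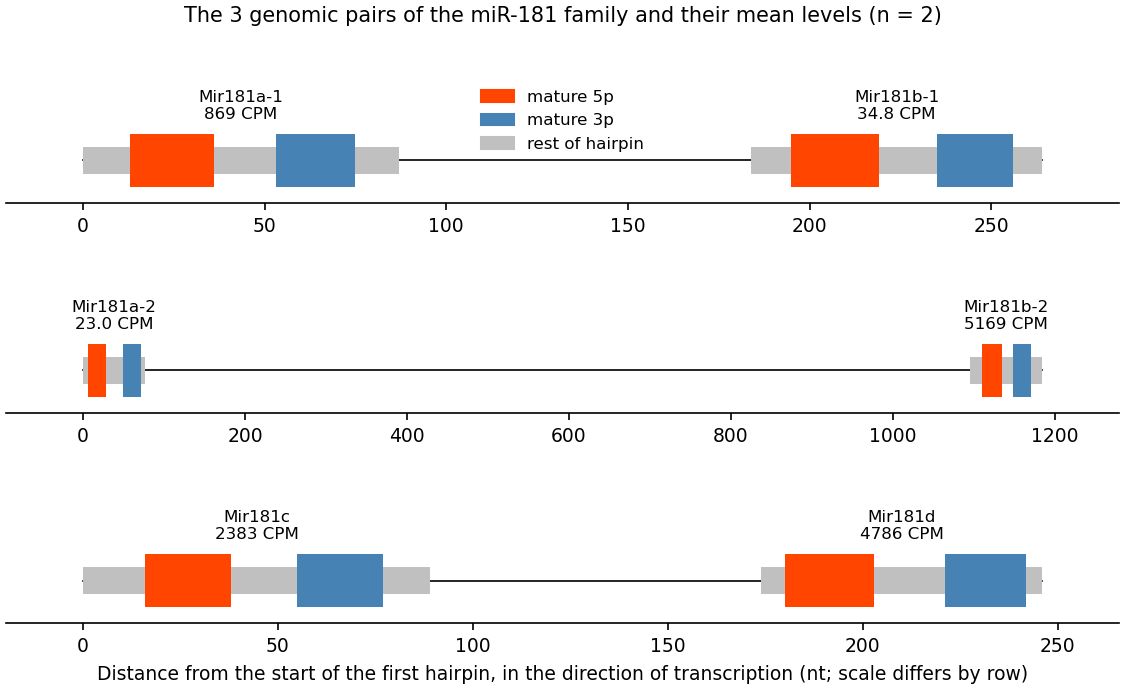
Each row is a genomic pair, drawn to its own scale along the annotated strand, with hairpins in grey, mature arms in colour and the mean CPM of each locus above it (n = 2 libraries). The hairpins lie 97 nt, 1019 nt and 85 nt apart, and the better counted locus is the upstream one in the first pair and the downstream one in the others.

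The family held about 1 in every 75 reads assigned to microRNA genes, and most of them came from Mir181b-2, Mir181d and Mir181c. Reads that mapped to several places are not assigned, and whole reads of miR-181a-5p and miR-181b-5p match 2 loci each. The shares and levels below are therefore of assigned reads and not of the mature RNAs as a whole. Of gene-assigned reads, the family took 1.28% in replicate 2 (41029 reads of 3207941, 95% interval 1.27 to 1.29%) and 1.37% in replicate 1 (37648 reads of 2740332, 1.36 to 1.39%). The mean was 1.33 ± 0.0671% (SD, n = 2). Intervals are exact binomial (Clopper-Pearson) and, without molecular identifiers, cover counting error only. Levels of single loci are given below as CPM, reads scaled to 1000000 gene-assigned reads of the library.

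Mir181b-2 and Mir181d were the highest members and could not be ordered. Mir181b-2 had 14283 reads (4452 CPM) in replicate 2 and 16127 reads (5885 CPM) in replicate 1, a mean of 5169 ± 1013 CPM (SD, n = 2). Mir181d had 15397 reads (4800 CPM) in replicate 2 and 13077 reads (4772 CPM) in replicate 1, a mean of 4786 ± 19.5 CPM. Mir181d was the higher of these loci in replicate 2 and Mir181b-2 in replicate 1, so the libraries overlapped. Among all 2202 loci Mir181b-2 ranked 45 and 35, and Mir181d ranked 40 in both.

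Mir181c followed in both libraries. It had 8595 reads (2679 CPM) in replicate 2 and 5719 reads (2087 CPM) in replicate 1, a mean of 2383 ± 419 CPM. Mir181a-1 had 2575 reads (803 CPM) in replicate 2 and 2561 reads (935 CPM) in replicate 1, a mean of 869 ± 93.2 CPM. The values of Mir181c did not overlap those of Mir181d above it or of Mir181a-1 below it.

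The remaining loci were far lower. Mir181b-1 had 98 reads (30.5 CPM) in replicate 2 and 107 reads (39.0 CPM) in replicate 1, a mean of 34.8 ± 6.01 CPM. Mir181a-2 had 81 reads (25.2 CPM) in replicate 2 and 57 reads (20.8 CPM) in replicate 1, a mean of 23.0 ± 3.15 CPM. The order of this last pair was the same in both libraries. In replicate 2, however, the exact Poisson 95% intervals overlapped, at 24.8 to 37.2 CPM for Mir181b-1 and 20.1 to 31.4 CPM for Mir181a-2. Mir181a-1 exceeded Mir181b-1, the next locus down, 26.3-fold in replicate 2 and 23.9-fold in replicate 1.

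**Figure D2:**
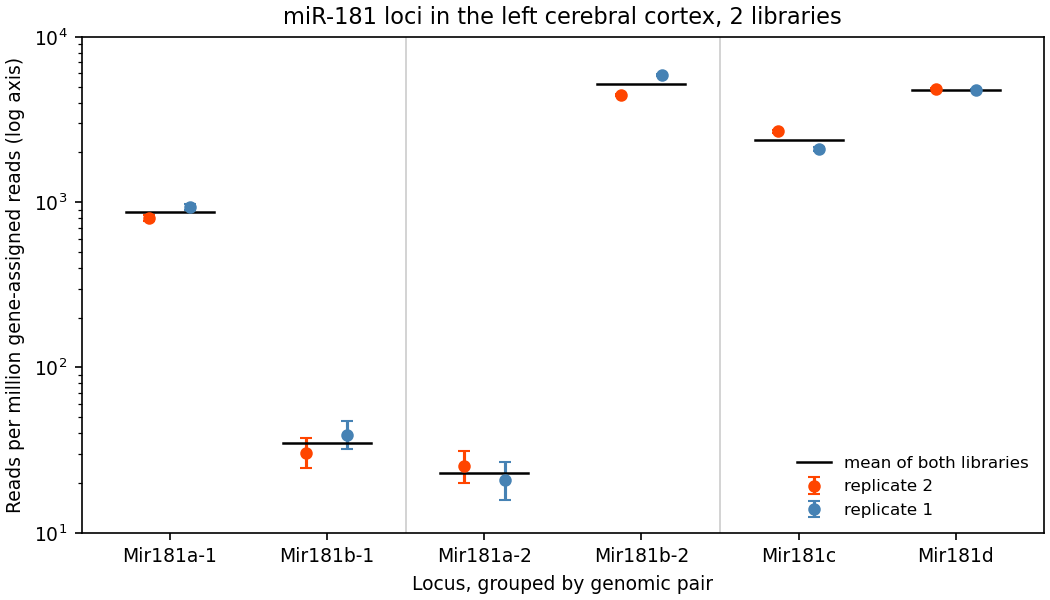
Points give the CPM of each locus in each library on a log axis, with exact Poisson 95% intervals for counting error, and the bars give the mean of both libraries. Mir181b-2, Mir181d and Mir181c lie at 2087 CPM or more in both libraries, Mir181a-1 near 869 CPM, and Mir181b-1 and Mir181a-2 at 39.0 CPM or less.

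As a share of the family's own reads, Mir181b-2, Mir181d and Mir181c together made up 93.3% in replicate 2 and 92.8% in replicate 1. Mir181d alone made up 37.5% in replicate 2 and 34.7% in replicate 1. The Mir181c and Mir181d pair gave 58.5% in replicate 2 (interval 58.0 to 59.0%) and 49.9% in replicate 1 (49.4 to 50.4%). The Mir181a-2 and Mir181b-2 pair gave 35.0% in replicate 2 (34.5 to 35.5%) and 43.0% in replicate 1 (42.5 to 43.5%), nearly all of it from Mir181b-2. The Mir181a-1 and Mir181b-1 pair gave 6.51% in replicate 2 and 7.09% in replicate 1. By assigned reads the pair on chromosome 8 was therefore the highest in both libraries, and the size of its lead over the chromosome 2 pair differed between them. Whole 5p reads can be assigned to Mir181c and Mir181d but not to the loci of the other pairs. The pairs are thus not counted alike, and their order as levels of mature RNA is not known.

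Which locus of a pair held the reads was set out next, since the loci of a pair are close enough to share a primary transcript and are compared within a library without any scaling. As counted, the chromosome 1 and chromosome 2 pairs were lopsided in opposite ways. Whole reads of their annotated 5p RNAs match loci in both of these pairs and are set aside, so the splits are those of the remaining reads. Mir181a-1 held 96.3% of the reads of its pair in replicate 2 (95.6 to 97.0%) and 96.0% in replicate 1 (95.2 to 96.7%). Mir181a-2 held 0.564% of its pair in replicate 2 (0.448 to 0.700%) and 0.352% in replicate 1 (0.267 to 0.456%), so Mir181b-2 exceeded it 176-fold in replicate 2 and 283-fold in replicate 1. Mir181c held 35.8% of its pair in replicate 2 (35.2 to 36.4%) and 30.4% in replicate 1 (29.8 to 31.1%). Means were 96.2 ± 0.243% for Mir181a-1, 0.458 ± 0.150% for Mir181a-2 and 33.1 ± 3.82% for Mir181c (SD, n = 2).

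These splits can be set beside those of other close neighbours. Over the 101 other pairs of detected loci that neighbour each other on 1 strand within 10 kb, the median absolute log2 ratio of the neighbours' reads was 2.74 in replicate 2 and 2.63 in replicate 1. The family's values were 4.72 and 4.58 for the chromosome 1 pair, 7.46 and 8.14 for the chromosome 2 pair, and 0.84 and 1.19 for the chromosome 8 pair, in replicates 2 and 1. The family thus lay on both sides of that median, and no test was made. The values of the chromosome 1 and chromosome 2 pairs leave out whole reads of their annotated 5p RNAs. Some of the 101 other pairs also hold a locus that shares a mature sequence with another locus, so the median is not free of this limit.

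The loci that hold identical 5p RNAs were then compared with each other. The deposited counts set aside reads that mapped to several places, 37.9% of the replicate 2 reads and 40.6% of the replicate 1 reads, and the files do not say where those reads fell. A read of the whole miR-181a-5p or miR-181b-5p sequence, as annotated, matches 2 of the 6 hairpins and could not be assigned to one. The affected hairpins are written here with their longest identical stretch in capitals, which is 28 nt between the miR-181a loci and 26 nt between the miR-181b loci.
Mir181a-1 (chr1:137966455-137966541, plus strand): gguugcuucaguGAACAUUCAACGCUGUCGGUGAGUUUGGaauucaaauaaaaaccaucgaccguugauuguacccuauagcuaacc
Mir181a-2 (chr2:38852735-38852810, plus strand): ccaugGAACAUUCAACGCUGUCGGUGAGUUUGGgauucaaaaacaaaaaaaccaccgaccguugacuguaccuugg
Mir181b-1 (chr1:137966639-137966718, plus strand): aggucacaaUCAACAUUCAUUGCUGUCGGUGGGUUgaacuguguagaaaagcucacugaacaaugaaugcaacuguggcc
Mir181b-2 (chr2:38853830-38853918, plus strand): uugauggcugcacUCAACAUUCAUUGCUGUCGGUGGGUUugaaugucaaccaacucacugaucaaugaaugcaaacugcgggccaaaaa

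The length a read must have before it occurs at 1 annotated microRNA locus only differed sharply between arms and loci. Starting at the annotated 5′ end, the 5p arm became unique at 28 nt in both miR-181a loci, 5 nt beyond the mature RNA of 23 nt, where the hairpins first differ by A28G (Mir181a-1 to Mir181a-2). In both miR-181b loci it became unique at 25 nt, 1 nt beyond the mature RNA of 24 nt, where they differ by G25U (Mir181b-1 to Mir181b-2). The 5p arms of Mir181c and Mir181d were unique from 11 nt and 12 nt on, well within their mature RNAs of 22 nt and 23 nt. Each of the 6 3p arms was unique within its mature length, from 16 nt or less. A count at Mir181a-1 or Mir181a-2 can therefore hold 3p reads, 5p reads of 28 nt or more and reads that start outside the identical stretch, but no exact 5p read of the annotated form. The same holds for Mir181b-1 and Mir181b-2, with 5p reads of 25 nt or more. A 5p read of 25 nt is placed there by its last base alone, G at Mir181b-1 and U at Mir181b-2. The comparison assumes exact matches and covers annotated microRNA hairpins and not the rest of the genome, and the files give no reads by arm or length.

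**Figure D3:**
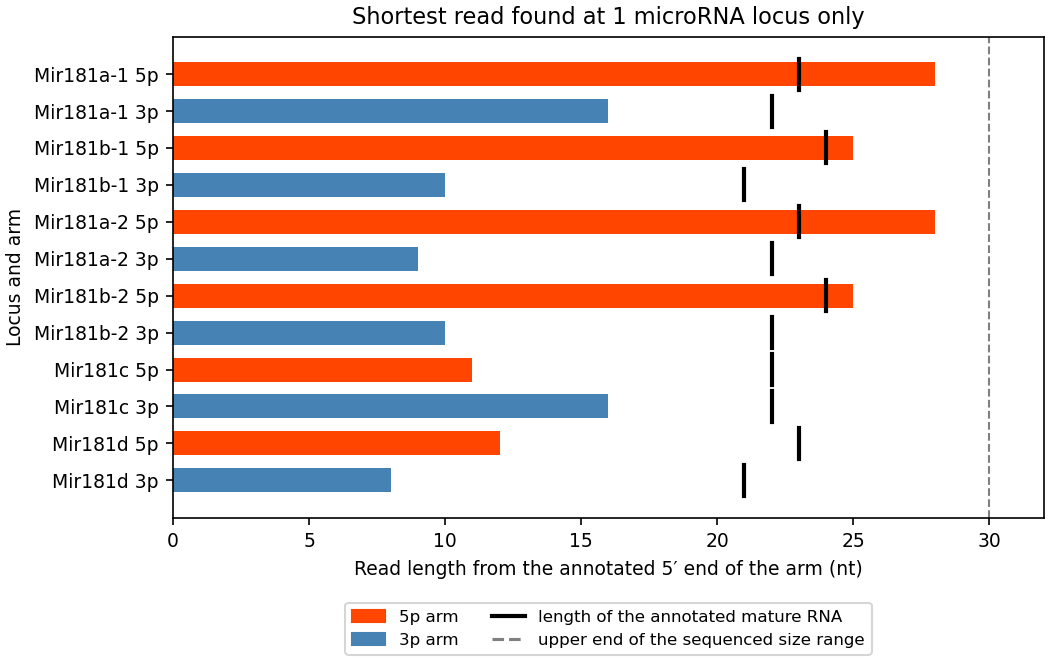
Bars give the shortest read, from the annotated 5′ end of each arm, that is found at 1 microRNA locus only. Black ticks give the length of the mature RNA and the dashed line the 30 nt limit of the sequenced size range, and bars pass the tick in the 5p arms of the miR-181a and miR-181b loci alone, at 28 nt and 25 nt.

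In the reads that could be assigned, the paralogs with identical 5p RNAs were counted very unequally. The higher one was on chromosome 1 for miR-181a and on chromosome 2 for miR-181b. Mir181a-1 exceeded Mir181a-2 31.8-fold in replicate 2 and 44.9-fold in replicate 1. Mir181b-2 exceeded Mir181b-1 146-fold in replicate 2 and 151-fold in replicate 1. Both orders held in each library. The single-copy loci Mir181c and Mir181d exceeded Mir181a-1, Mir181a-2 and Mir181b-1 in both libraries. Mir181c was below Mir181b-2 in both, and Mir181d was above it in replicate 2 and below it in replicate 1. Counts at the 4 loci with a shared 5p RNA are uncertain as levels of the mature microRNA, and the part of this in the order of the 6 loci was not tested.

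Over all mature sequences listed at exactly 2 loci in the RefSeq table, 20 pairs of detected loci were found. A locus could enter more than 1 pair through different sequences. The higher locus was the same in both libraries in all 20. Outside the family the median ratio of the higher to the lower locus was 3.10 in replicate 2 and 3.42 in replicate 1 over 18 pairs, with 3 pairs past 10-fold in each library. Ranked by this ratio within each library, the miR-181b pair stood at place 1 in replicate 2 and at place 2 in replicate 1, and the miR-181a pair at place 4 in replicate 2 and at place 3 in replicate 1. The place of the miR-181b pair turned with Mir219a-2 over Mir219a-1, which was 78.2-fold in replicate 2 and 261-fold in replicate 1. That of the miR-181a pair turned with Mir92-1 over Mir92-2, which was 50.3-fold in replicate 2 and 27.3-fold in replicate 1. These ranks describe the 2 libraries, and no test of the difference was made.

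**Figure D4:**
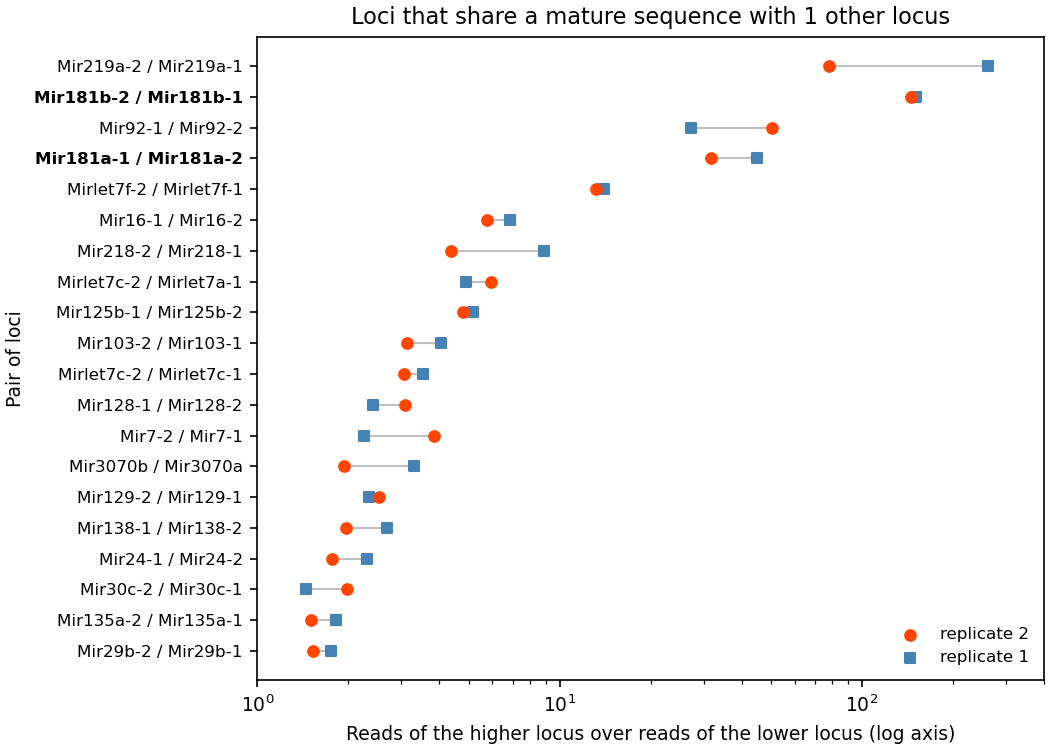
Each row is a pair of loci with a mature sequence in common, and points give the reads of the higher locus over those of the lower locus in each library on a log axis. Rows are sorted by the ratio of mean CPM, and the miR-181b pair (146-fold and 151-fold in replicates 2 and 1) and the miR-181a pair (31.8-fold and 44.9-fold) are among the 4 highest of the 20 in each library.

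No read was counted on the strand opposite to any of the 6 loci in either library. A count of 0 allows up to 3 reads, or 0.935 CPM in replicate 2 and 1.09 CPM in replicate 1. The column that ignores strand held the same counts at all 6 loci as the RNA-strand column, also at Mir181b-2, which lies within an exon of Gm44144 annotated on the opposite strand.

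Between the libraries, 4 members were lower in replicate 2 past the test, 1 was higher and 1 did not pass. The comparison was an exact binomial test on reads, two-sided, with library sizes scaled by edgeR's trimmed mean of M values (TMM) and p-values adjusted by Benjamini and Hochberg over the 389 loci. It compares these libraries and no condition, and its p-values cover counting error only. In this comparison 58.4% of all detected loci passed, 28.8% higher and 29.6% lower in replicate 2. A count of 5 of 6 members is read against that share, and was not tested against it.

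Mir181b-2 had the largest absolute log2 ratio of the family, at −0.57 for replicate 2 over replicate 1 (exact binomial test, adjusted p = 8.34e-263). Mir181b-1 followed at −0.53 (adjusted p = 0.0164 in the same exact test) and Mir181a-1 at −0.39 (adjusted p = 1.17e-21). Mir181d was lower by little, at −0.16 (adjusted p = 5.37e-21). Mir181c was higher, at 0.19 (adjusted p = 6.46e-14). Mir181a-2, with the fewest reads, had a ratio of 0.11 (adjusted p = 0.803). With TMM scaling, the loci of the chromosome 1 pair were both lower in replicate 2 and those of the chromosome 8 pair differed in direction. Scaled by library total alone, both chromosome 8 loci were above 0, Mir181c at 0.36 and Mir181d at 0.0083, the second without passing the test (exact binomial adjusted p = 0.698).

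All 6 members lay within 1.5-fold between the libraries, against 262 of the 389 detected loci (67.4%). The median log2 ratio was −0.28 over the 6 members and −0.0098 over all detected loci, and the median absolute log2 ratio was 0.29 and 0.40. Scaling by library total alone moved the median of all loci to 0.16. Under it 159 of the loci past the test were higher and 77 were lower, against 112 and 115 with TMM, and Mir181b-1 no longer passed (−0.35, exact binomial adjusted p = 0.120). Relative to that shift of all loci, Mir181d was below the median under both scalings.

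**Figure D5:**
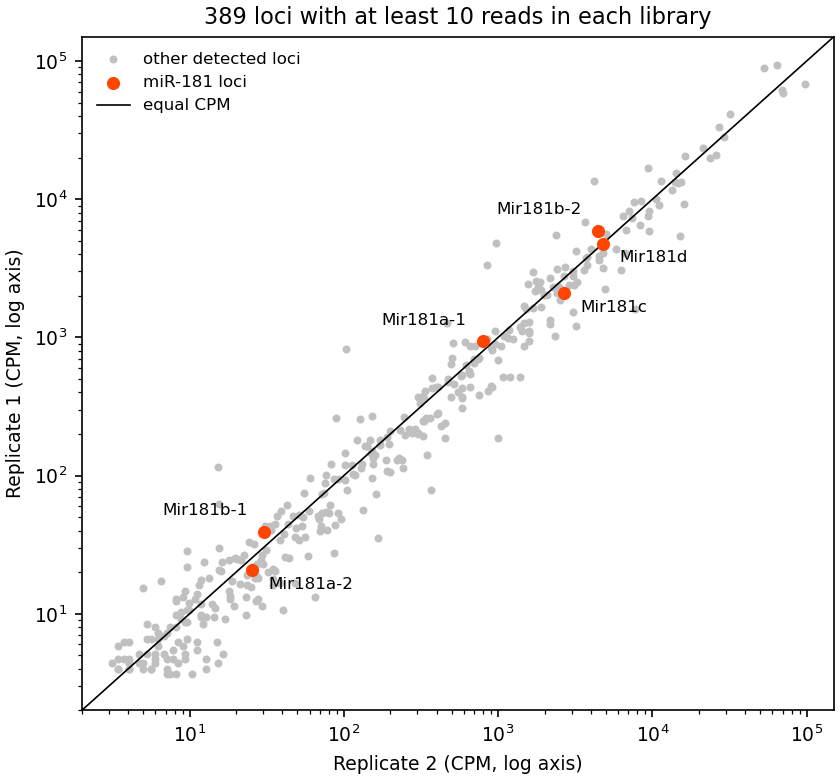
Each point is a locus with at least 10 reads in each library (389 in all), with CPM in replicate 2 across and in replicate 1 up, both on log axes. The 6 miR-181 loci, in colour, span 23.0 to 5169 CPM on average and lie close to the line of equal CPM.

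Loci of similar level in both libraries were looked up as well. Likeness was the Euclidean distance in log2(CPM + 1) over the 2 libraries, with the 2 nearest loci outside the family named for each member. Mir361 and Mir138-1, the second of these known from neurons, were nearest to Mir181b-2, and Mir378a and Mir361 to Mir181d. Mir1983 and Mir485 were nearest to Mir181c, Mir467d and Mir7689 to Mir181a-1, Mir32 and Mir29b-2 to Mir181b-1, and Mir670 and Mir92-2 to Mir181a-2. Distances ranged from 0.048 for Mir467d to 0.35 for Mir138-1. With only 2 libraries these neighbours share a level and no more.

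MicroRNAs known from the cell types of the tissue were present alongside the family. Of 18 neuron loci 14 were detected, holding 4.55% of the assigned reads of replicate 2 and 3.52% of those of replicate 1. The list was led by Mir128-1 (15159 and 5376 CPM in replicates 2 and 1) and the activity-regulated Mir132 (8428 and 9788 CPM). The Mir124a loci and Mir9-2 were not among the detected loci. Mir128-1 has a mature sequence in common with Mir128-2, and a whole read of it cannot be given to either locus. The shares of the cell types are therefore not levels of their mature RNAs, and their sizes cannot be ranked against each other. The family is also known from lymphocytes. Of 6 leukocyte loci 4 were detected, with 0.190% of reads in replicate 2 and 0.157% in replicate 1, led by Mir150 (1068 and 518 CPM) and Mir146 (655 and 871 CPM). Oligodendrocyte loci, all 3 detected, held 0.148% in replicate 2 and 0.428% in replicate 1, led by Mir219a-2 (853 and 3339 CPM) and Mir338 (613 and 923 CPM). Of the endothelial loci Mir126a had 9390 CPM in replicate 2 and 16741 CPM in replicate 1, while Mir126b had 0 reads in both. The 3 annotated erythroid loci, led by Mir451a (510 and 908 CPM) and Mir144 (53.6 and 43.4 CPM), held 0.0585% in replicate 2 and 0.0976% in replicate 1. Past the exact binomial test, 9 neuron loci were higher in replicate 2 and 3 lower, 1 leukocyte locus was higher and 2 lower, and 2 oligodendrocyte loci, Mir126a and 1 erythroid locus, Mir451a, were lower. Endothelial, oligodendrocyte and erythroid shares were lower in replicate 2, while neuron and leukocyte shares were higher. Of the members past the test, Mir181b-2, Mir181b-1, Mir181a-1 and Mir181d were lower and Mir181c was higher. The part of the cell types in the members' ratios was not tested. In bulk tissue, fewer cells of a type and less RNA per cell cannot be told apart.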

How the data were processed

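MicroRNA sequencing gave 2 libraries from 1 group. The authors deposited raw counts of reads for every annotated microRNA gene, made with mm10 and GENCODE M21, per the accompanying file lists, with aligner, counter and trimming not given in the sources used here. There are 3 count columns without names, whose meaning was taken from the values, and column 3 (reads on the RNA strand) was used. The 4 rows that name no gene stayed out of library sizes. They took 66.7% of the replicate 2 reads and 64.6% of the replicate 1 reads, mostly reads that mapped to several places (3645348 and 3142330) and unmapped reads (2193590 and 1403582). Gene-assigned totals were 3207941 and 2740332 reads.

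All 2202 identifiers matched GENCODE M21, which gave symbols, positions, host genes and the hairpins for sequence comparison. Printed sequences come from the RefSeq table, in which 6 members had mature and 5 had hairpin entries. Read lengths of 8 to 30 nt were searched for the shortest unique read, on the same strand. Loci with 10 or more reads in both libraries were called detected. Library sizes were scaled with edgeR 4.0.16 (TMM), or DESeq2 1.42.0 as an alternative, under R 4.3.3, and the exact binomial test used scipy 1.17.1. The test was tried on simulated reads with known changes, drawn with counting error alone and without TMM scaling. That trial does not cover spread between replicates. Alternatives were the column without strand, other minimum counts, other scaling, all mapped reads as the total, windows of 18 nt and 22 nt, and each replicate left out.

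Named loci were the 6 members, their 2 nearest loci and the 2 highest of each cell type list. Mir219a-1, Mir92-1, the Mir124a loci, Mir9-2, and Nr6a1os and the overlapping genes, were named after their values or positions were seen. The members and lists were chosen with earlier results of these data known.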

Additional observations from a re-analysis of the deposited data

How the results depend on the processing

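The family's share of reads was 1.42% in the column without strand, whose total is smaller, and 0.573% when all mapped reads formed the total. With each replicate left out it ranged from 1.28 to 1.37%. The share within a pair ranged from 96.0 to 96.3% for Mir181a-1, 0.352 to 0.564% for Mir181a-2 and 30.4 to 35.8% for Mir181c, and was the same in the column without strand. Of 36 recomputed log2 ratios between the libraries, 34 kept their direction and side of the threshold. Scaling by library total alone reversed Mir181d (0.0083) and left Mir181b-1 (−0.35) short of the threshold, while it moved the median of all loci to 0.16. The number of loci that differed ranged from 211 to 240 over the alternatives, against 227. Windows of 18, 20 or 22 nt left 81.4 to 92.6% of the windows of the miR-181a and miR-181b hairpins unique and all windows of Mir181c and Mir181d, and a comparison with both strands, chosen after seeing the data, did not change the values at 20 nt. The comparison with the whole genome was not run, since no genome sequence was used here. With 1 library left there is no test between libraries. No paired analysis was possible because there was only 1 group. At 57 to 107 reads, depth limits the ratios of Mir181a-2 and Mir181b-1.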
